A study of Mus musculus with 6 samples.

Results

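The nuclear-encoded genes of the mitochondrial respiratory chain were compared between inguinal white adipose tissue (IngWAT) of SAKI mice and of WT mice. Members were chosen by a rule on gene names, with earlier results of these data known. They were the genes of complexes I to V and cytochrome c whose symbols begin with Nduf, Uqcr, Cox4 to Cox8 or Atp5. The rule also took Sdha, Sdhb, Sdhc, Sdhd and Cycs and left out 4 pseudogene names. The rule found 93 of the 34745 genes in the count tables. These were 36 subunits of complex I, 7 complex I assembly factors named Ndufaf, the pair Ndufa4 and Ndufa4l2, 4 subunits of complex II, 8 of complex III, cytochrome c itself, 18 subunits of complex IV, 15 of complex V, and the pair Atp5s and Atp5sl, which carry Atp5 names without being subunits. Of the 93, 91 passed the filter on low counts. The other 2, Cox7b2 and Cox8c, had 0 counts in all 6 libraries, where a count of 0 allows up to 3 counts, that is at most 0.155 to 0.196 CPM (counts scaled to library size with TMM factors), for counting error only.

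Each group held 3 male mice, 1 RNA-seq library per mouse. SAKI mice carried an LSL-Slc35d3 transgene, silent until its stop cassette is cut out, together with a Cre driven by the adiponectin promoter, which is active in adipocytes, so the other cells of the depot are not targeted. WT controls had the Slc35d3 alleles without Cre, and the transgenic lines were made on a C57BL/6 background. Mice of both groups ate a normal chow diet (NCD, 10 kcal% fat) for 10 weeks from 6 weeks of age until 16 weeks, and all samples are labelled as PBS perfusion. Total counts per library were 15354161 to 18787036. Slc35d3, the gene switched on, had 745, 793 and 770.3 CPM in SAKI mice 1, 2 and 3, against 73.3, 82.1 and 74.4 CPM in WT mice 1, 2 and 3, and was 10.05-fold higher in SAKI mice (log2 fold change 3.33, SE 0.12, edgeR adjusted p = 0.000244), as labelled. Throughout, 3 values of a group are given in the order of mice 1, 2 and 3, and a log2 fold change is SAKI over WT.

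The respiratory chain passes electrons from NADH (complex I) and succinate (complex II) through ubiquinone, complex III and cytochrome c to complex IV, which reduces oxygen. Complexes I, III and IV pump protons across the inner mitochondrial membrane, and complex V, the ATP synthase, uses the gradient to make ATP. All of complex II and most subunits of the other complexes are encoded in the nucleus, while mitochondrial DNA encodes a core set for complexes I, III, IV and V. White adipocytes hold few mitochondria, brown and beige adipocytes hold many, and complex IV has tissue isoforms such as Cox7a1 and Cox8b that mark heart, skeletal muscle and brown fat.

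Promoter sequences of 5 members are shown because these genes carry the comparisons below: Ndufc1 and Atp5g3 had the lowest log2 fold changes of all members, Atp5sl was the single member whose SAKI values all lay above the WT values, and Cox8b with Cox8a is an isoform pair. The sequences are from RefSeq on GRCm38.p6, are written 5′ to 3′ on the strand of the gene, and run from 250 bases before the start site to 50 after it. Capitals mark matches to any of 4 motifs, searched on both strands: NRF1 (GCGCA, any base, GCGC), GABPA of the ETS family (CCGGAAG), ERR (TCAAGGTCA) and YY1 (AAGATGGCG).
Ndufc1, chr3:51408906-51409205, minus strand: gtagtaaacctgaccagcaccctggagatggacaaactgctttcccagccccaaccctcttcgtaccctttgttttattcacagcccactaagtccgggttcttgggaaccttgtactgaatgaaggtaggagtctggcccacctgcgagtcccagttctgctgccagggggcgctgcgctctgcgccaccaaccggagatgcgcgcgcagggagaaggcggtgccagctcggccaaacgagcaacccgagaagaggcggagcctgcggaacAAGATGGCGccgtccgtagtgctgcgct
Atp5g3, chr2:73911277-73911576, minus strand: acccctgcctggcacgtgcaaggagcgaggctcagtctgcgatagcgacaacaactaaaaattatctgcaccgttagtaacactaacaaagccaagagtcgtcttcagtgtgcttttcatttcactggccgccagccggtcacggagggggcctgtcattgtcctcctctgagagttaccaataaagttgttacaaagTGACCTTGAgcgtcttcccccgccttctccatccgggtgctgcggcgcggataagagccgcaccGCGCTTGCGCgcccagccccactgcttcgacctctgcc
Atp5sl, chr7:25619164-25619463, plus strand: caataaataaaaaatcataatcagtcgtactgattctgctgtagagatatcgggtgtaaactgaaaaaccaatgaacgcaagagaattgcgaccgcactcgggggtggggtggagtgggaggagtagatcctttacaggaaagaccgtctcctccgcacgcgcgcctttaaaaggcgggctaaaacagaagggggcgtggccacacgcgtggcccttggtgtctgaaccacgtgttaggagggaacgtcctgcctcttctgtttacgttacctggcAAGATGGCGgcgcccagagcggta
Cox8a, chr19:7217567-7217866, minus strand: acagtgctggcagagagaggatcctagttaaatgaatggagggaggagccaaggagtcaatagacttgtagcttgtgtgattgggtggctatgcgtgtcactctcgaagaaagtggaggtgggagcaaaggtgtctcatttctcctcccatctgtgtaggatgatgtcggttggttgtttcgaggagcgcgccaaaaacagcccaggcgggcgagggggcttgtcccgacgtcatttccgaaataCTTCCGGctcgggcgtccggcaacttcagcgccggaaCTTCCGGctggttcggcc
Cox8b, chr7:140900397-140900696, minus strand: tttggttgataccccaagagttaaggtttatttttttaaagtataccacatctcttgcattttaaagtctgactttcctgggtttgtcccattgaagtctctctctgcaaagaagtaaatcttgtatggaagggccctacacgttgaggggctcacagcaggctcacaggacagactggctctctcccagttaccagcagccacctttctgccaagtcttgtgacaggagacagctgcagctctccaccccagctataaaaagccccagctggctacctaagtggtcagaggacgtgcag

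With the start site as position 0, the YY1 match began at 22 in Ndufc1 and at 26 in Atp5sl. Atp5g3 held an ERR match at -52 and an NRF1 match at 12, both on the opposite strand, and Cox8a held 2 ETS matches on the opposite strand at -5 and 32. The Cox8b window held none of these letters. Promoters of 77 of the 93 members were in the RefSeq table. NRF1 letters stood in 24.68% of the 77, against 7.17% of the 17492 protein-coding genes with a promoter in the table. The shares were 22.08% against 12.95% for ETS, 10.39% against 2.14% for YY1, and 2.6% against 0.38% for ERR, the last from Sdhd and Atp5g3 alone. By complex, NRF1 letters stood in 6 of 14 promoters of complex V and 7 of 32 of complex I, and in 1 of 13 of complex IV. A match is a description of the letters and not a shown binding site.

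Most respiratory chain genes had slightly lower mean levels in SAKI than in WT mice, but no single member passed the test against the spread between mice. With edgeR's quasi-likelihood test and Benjamini-Hochberg adjustment over all 15400 genes tested, 0 of 91 members had an adjusted p under 0.05, the lowest being 0.17 for Ndufc1, and 5 of all genes did (0.0325%, of which 0.0195% higher and 0.013% lower). At an unadjusted p under 0.05, 13 members were lower and 0 were higher in SAKI mice, that is 14.3% lower, against 9.99% lower and 8.36% higher of all genes tested. The 13 were Ndufc1, Ndufa13, Ndufb2, Ndufa2, Ndufb6 and Ndufs7 of complex I, the assembly factors Ndufaf7 and Ndufaf6, Atp5l, Atp5g3, Atp5e and Atp5j of complex V, and Cox4i2 of complex IV. DESeq2 called 2 members, Ndufc1 (adjusted p = 0.00924) and Atp5g3 (adjusted p = 0.0408), both lower, where it called 2.86% of genes lower and 2.13% higher. Limma-voom called 0.

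In 65 of 91 members the log2 fold change was below 0 (71.4%, against 50.4% below and 49.6% above 0 of all genes tested), and the median was -0.13, against -0.004 over all genes. Complex I had 32 of 36 subunits below 0 and a median of -0.19, or -0.07 without WT 3. Its assembly factors had 6 of 7 below 0 and a median of -0.38. Complex V had 10 of 15 below 0 and a median of -0.12, and complex II had 3 of 4 and a median of -0.10. Complexes III and IV were evenly split, with 4 of 8 and 8 of 16 below 0 and medians of -0.024 and -0.043, and with upper-quartile scaling the median of complex III was 0.016. No test of the lists was made, and members of a complex are not independent of each other.

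**Figure D1:**
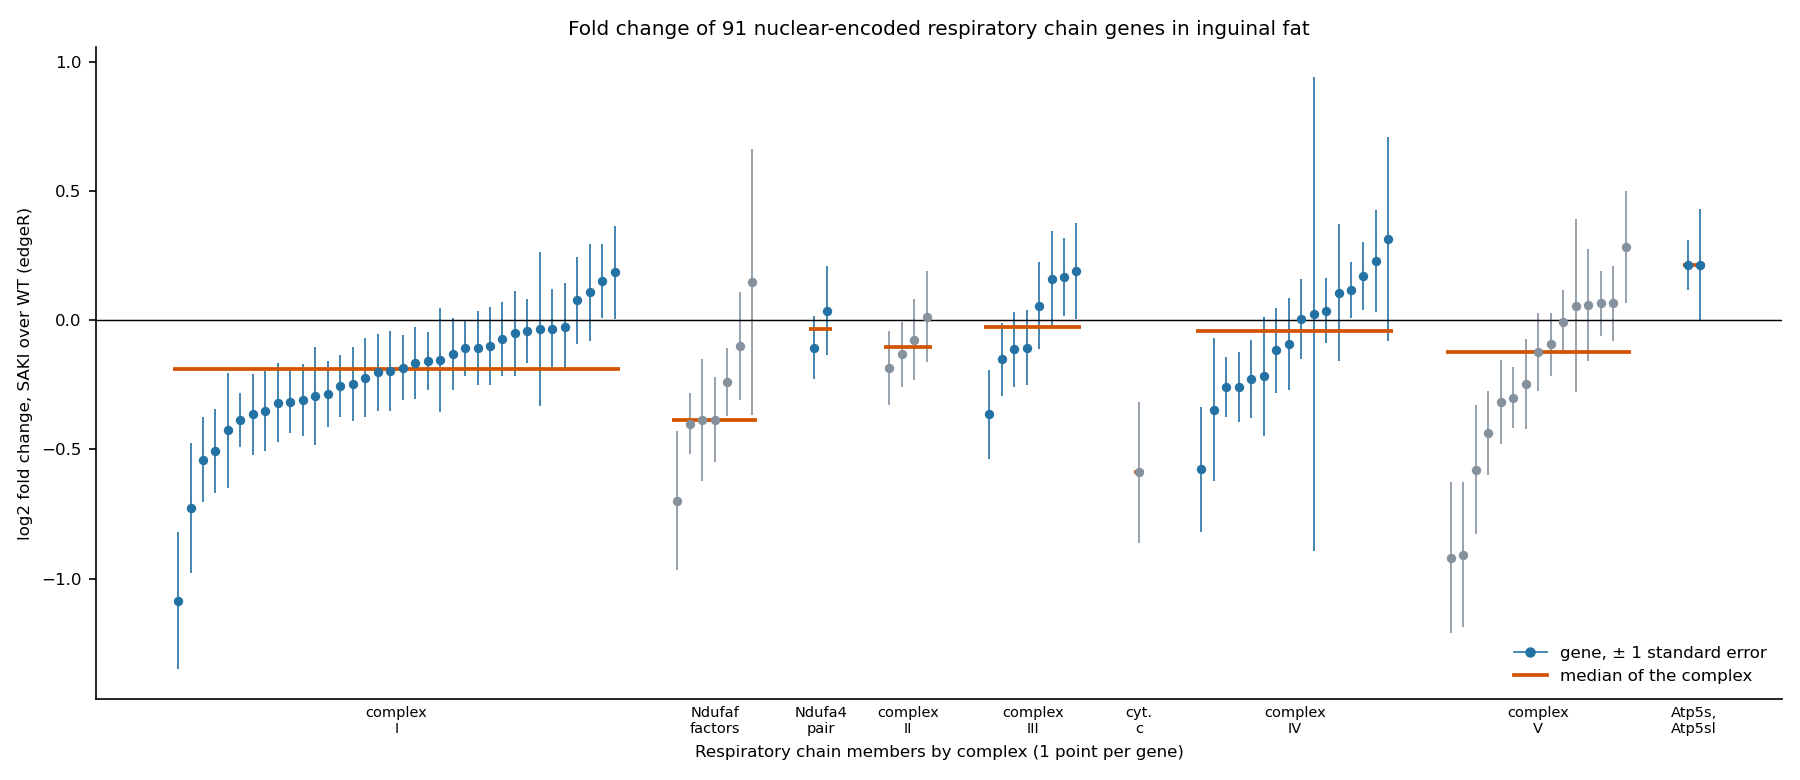
Log2 fold change (SAKI over WT, vertical axis) of the 91 members tested, 1 point per gene with ± 1 standard error from edgeR, grouped along the horizontal axis by complex, with the median of each group as an orange line (blue and grey only set groups apart). Complex I lies mostly below 0 (32 of 36 genes, median -0.19), complexes III and IV lie evenly around it, and Ndufc1 at -1.09 is the lowest point.

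The SAKI values were entirely below the WT values for 22 members (24.2%, against 12.4% of all genes tested) and entirely above for 1, Atp5sl (13.0% of all genes). The other 68 overlapped. Of the 22, 10 belonged to complex I, 5 to complex V, 4 to the assembly factors, 2 to complex IV and 1 to complex III. The WT mouse nearest to the SAKI mice was WT 2 in 14 of the 22 and WT 1 in 8.

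The WT mice differed more among themselves than the SAKI mice in most members. WT 3 was the highest of the 6 libraries in 58 of 91 members (63.7%, against 27.1% of all genes tested), WT 1 was the lowest in 43 (47.3%, against 16.7%), and WT 3 was the lowest in 0. The WT range was wider than the SAKI range in 82 members (90.1%, against 76.2% of all genes), and in 37 members (40.7%, against 27.6%) all SAKI values lay inside the WT range. Summed over the 93 members, the level was 9875, 9279 and 9627 CPM in SAKI mice, against 9069, 10718 and 12151 CPM in WT mice. The SAKI sums were alike and lay between WT 1 and WT 2.

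WT 2 also stood apart from the other WT libraries in the whole data set: on the first principal component (47.88% of variance) it had -24.4, beside -27.8 to -21.0 for the SAKI libraries, while WT 1 and WT 3 had 40.6 and 58.1. Without WT 2, edgeR called 10 members, 9 lower and 1 higher, in a fit that called 9.14% of all genes lower and 7.41% higher. The 9 were Ndufc1 (log2 fold change -1.33, adjusted p = 0.00471), Atp5g3 (-1.20, adjusted p = 0.00461), Atp5l, Ndufb6, Ndufb2, Ndufa2, Ndufa13, Ndufaf7 and Atp5e, and Uqcrh was the higher one. Of 91 members, 9 is 9.9%, close to that background. Leaving out any other library called 0 members.

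**Figure D2:**
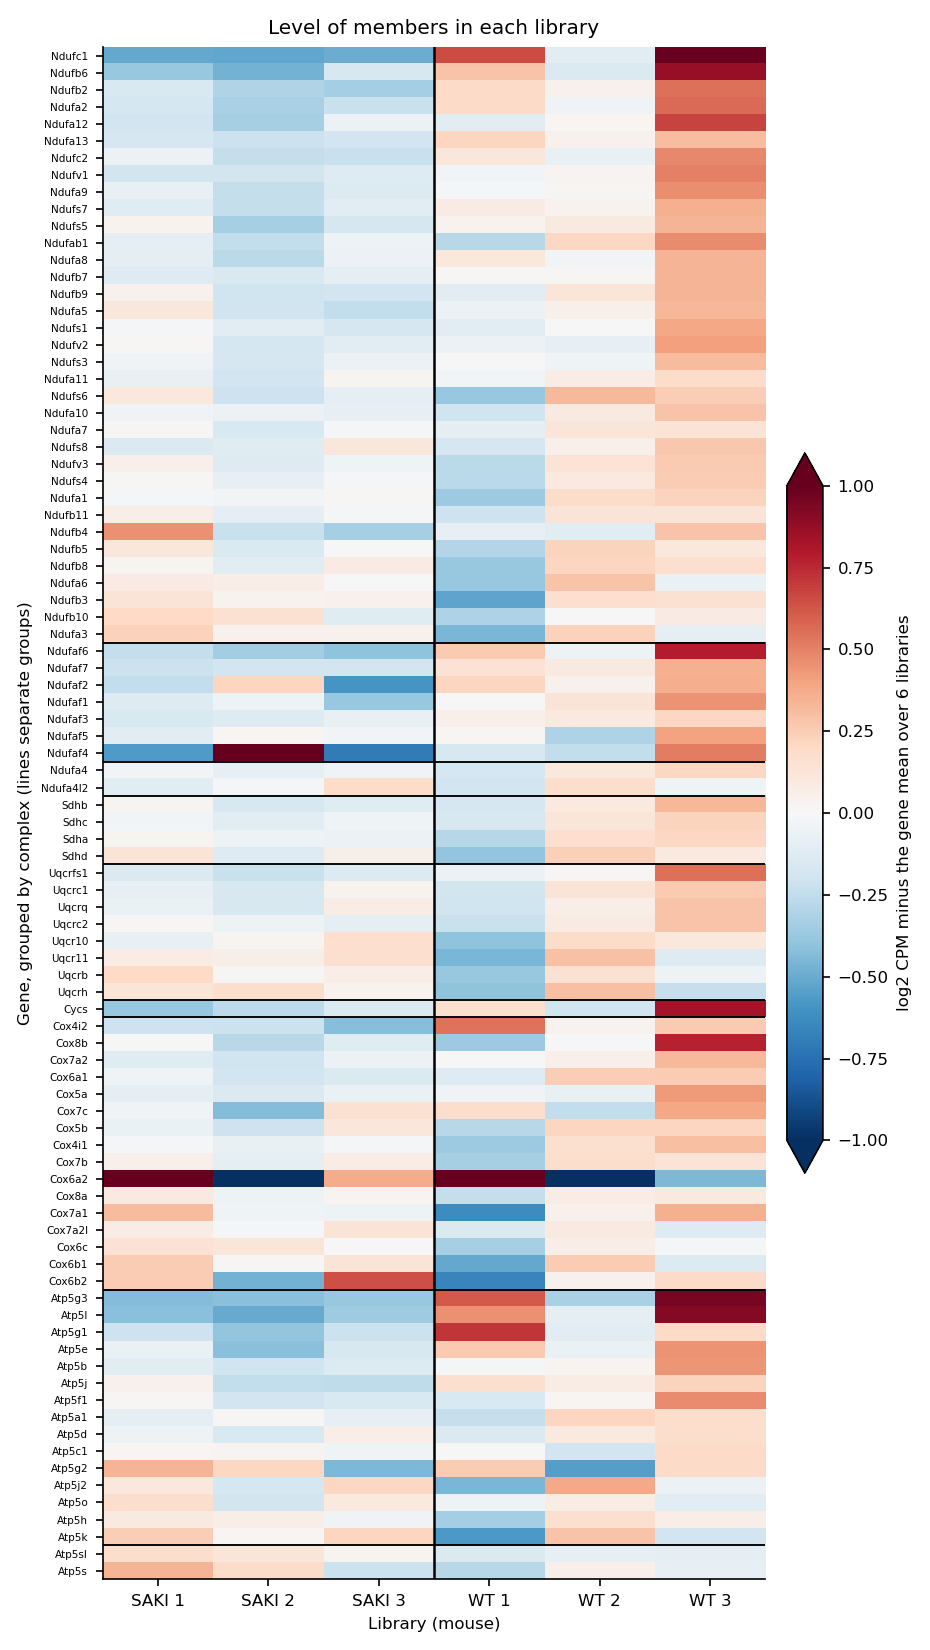
Log2 CPM of the tested members, 1 left out, minus the mean of each gene over the 6 libraries (colour, red high and blue low, clipped at 1), with genes in rows by complex and the SAKI libraries left of the WT libraries. The SAKI columns are alike for most genes, apart from a few such as Ndufaf4 and Cox6a2, and over all 91 tested members WT 3 is the highest library in 58 and WT 1 the lowest in 43.

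Markers of the cells in the depot differed in level too, with 0 past the edgeR test. All 8 adipocyte markers had a log2 fold change below 0 (median -0.39, 3 without overlap), and their summed level was 13708 to 15288 CPM in SAKI mice, against 15669 to 19806 CPM in WT mice, with Adipoq, Fabp4 and Plin1 present in every library, as in adipose tissue. All 6 T cell markers were above 0 (median 0.78, 5 without overlap, where 13.0% of all genes tested were higher and 12.4% lower without overlap), as were all 6 B cell markers (median 0.19) and all 6 macrophage markers (median 0.64, 3 without overlap). Summed T cell markers lay between 297 and 336 CPM in SAKI mice, against 162 to 244 CPM in WT mice. Summed macrophage markers lay between 969 and 1166 CPM in SAKI mice, against 419 to 1039 CPM in WT mice. Fibroblast and progenitor markers were above 0 in 5 of 6 (median 0.71, all overlapping), and smooth muscle and pericyte markers were below 0 in 6 of 6 (median -0.58, 3 without overlap). DESeq2 called 4 T cell markers higher, and 1 adipocyte marker and 2 smooth muscle and pericyte markers lower. Of all genes it called 2.13% higher and 2.86% lower. Without WT 2, edgeR called 6 macrophage, 5 fibroblast, 3 T cell and 1 endothelial marker higher and 2 smooth muscle and pericyte markers lower. That fit called 7.41% of all genes higher and 9.14% lower. The part of these cells in the member values was not tested. In bulk tissue, fewer cells of a type and less RNA per cell cannot be told apart.

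In complex I, the NADH-oxidizing N module had 9 of 10 subunits below 0 (median log2 fold change -0.17), the ubiquinone-reducing Q module 6 of 6 (-0.20) and the membrane arm 17 of 20 (-0.20). Ndufv1, which binds the flavin that takes electrons from NADH, had 87.6, 87.9 and 91.1 CPM in SAKI mice, against 97.7, 101.5 and 141 CPM in WT mice. The groups did not overlap, with WT 3 far above the rest, and the log2 fold change was -0.35 (SE 0.16, edgeR adjusted p = 0.284), or -0.165 without WT 3. Ndufs1, the largest iron-sulfur subunit, had 189, 178 and 170.2 CPM in SAKI mice and 177, 191 and 249 CPM in WT mice. Its groups overlapped (log2 fold change -0.20, edgeR adjusted p = 0.494).

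The lowest ratio of all members was that of Ndufc1, a small accessory subunit of the membrane arm (ENSMUSG00000037152, GRCm38 chromosome 3, 51404677 to 51408988). It had 12.1, 12.0 and 12.2 CPM in SAKI mice, against 27.0, 15.9 and 34.0 CPM in WT mice. The SAKI values were nearly equal and all below the WT values, of which WT 2 was the nearest. Ndufc1 averaged 12.1 ± 0.119 CPM in SAKI mice and 25.6 ± 9.15 CPM in WT mice (SD, n = 3 each), and its log2 fold change was -1.09 (SE 0.27, edgeR adjusted p = 0.17). Ndufa13 (GRIM-19), an accessory subunit first described as a cell death regulator, had 48.8, 47.3 and 48.1 CPM in SAKI mice, against 63.8, 56.6 and 68.1 CPM in WT mice. Here too the groups did not overlap (log2 fold change -0.39, SE 0.10, edgeR adjusted p = 0.18). Exons of Tssk6 on the other strand cover 29.98% of the exonic bases of Ndufa13, and whether counting used the strand is not stated in these sources. The same holds for Ndufb6, with 39.0% under exons of Smim27 (25.7, 24.1 and 29.8 CPM in SAKI mice, against 40.7, 30.1 and 60.9 CPM in WT mice, log2 fold change -0.73, edgeR adjusted p = 0.224). The 4 subunits above 0 were Ndufa3, Ndufa6, Ndufb3 and Ndufb10, with log2 fold changes of 0.19, 0.078, 0.11 and 0.15, and in each the groups overlapped.

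**Figure D3:**
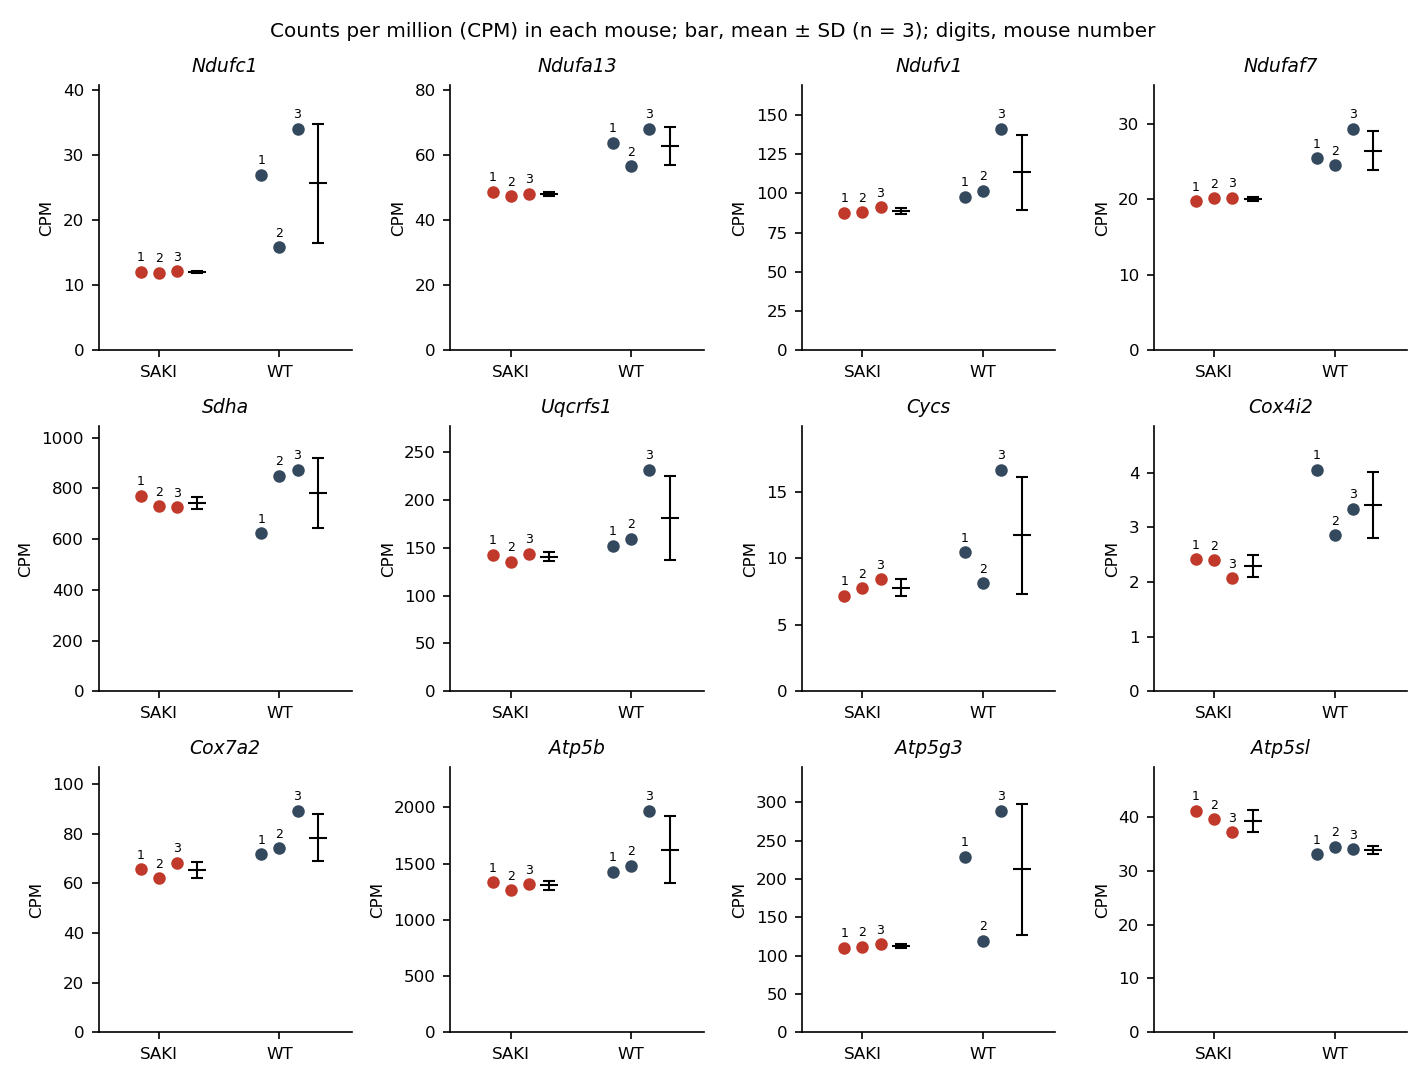
CPM of 12 members in each mouse (vertical axis from 0, SAKI left and WT right in each panel, 1 point per mouse with the mouse number), with the mean ± SD of 3 mice as a bar. The SAKI points lie closer together than the WT points in the panels other than Atp5sl, as for Ndufc1 (12.0 to 12.2 CPM in SAKI mice, 15.9 to 34.0 CPM in WT mice). In Atp5sl the SAKI points spread more (37.1 to 41.1 CPM) than the WT points (33.0 to 34.4 CPM).

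The assembly factors, which build complex I and are not part of it, were lower in level than the subunits, with a median of 4.07 FPKM (counts scaled to gene length and library size) against 25.4 FPKM for complex I subunits. Ndufaf7, a methyltransferase needed to assemble complex I, had 19.8, 20.1 and 20.2 CPM in SAKI mice, against 25.5, 24.5 and 29.3 CPM in WT mice. There was no overlap (log2 fold change -0.40, SE 0.12, edgeR adjusted p = 0.192). Ndufaf6 had 3.13, 2.91 and 2.79 CPM in SAKI mice, against 4.42, 3.57 and 6.35 CPM in WT mice, again without overlap (-0.70, SE 0.27, edgeR adjusted p = 0.25). Ndufaf1 and Ndufaf3 did not overlap either (-0.38 and -0.24). Ndufaf4 was the exception, with 7.43, 24.4 and 6.77 CPM in SAKI mice and 9.82, 9.27 and 15.7 CPM in WT mice: SAKI 2 was the highest of all libraries and the other SAKI mice were the lowest. Its fold change above 0 (0.15, SE 0.52) thus rested on SAKI 2.

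Complex II, which is also an enzyme of the citric acid cycle, overlapped between the groups in all 4 subunits, and every SAKI value of each subunit lay inside the WT range. Sdha, the flavin-binding subunit, had 772, 731 and 726 CPM in SAKI mice, against 624, 849.8 and 874 CPM in WT mice. The log2 fold change was -0.075 (SE 0.16, edgeR adjusted p = 0.82). Sdhb, the iron-sulfur subunit, had 143, 126 and 129.6 CPM in SAKI mice and 126, 151 and 177 CPM in WT mice (-0.18, SE 0.14, edgeR adjusted p = 0.518). In the membrane anchor Sdhc the values were 135, 127 and 133 CPM in SAKI mice and 123, 149 and 160.3 CPM in WT mice (-0.13, edgeR adjusted p = 0.592), and the other anchor, Sdhd, had a log2 fold change of 0.015. WT 1 was the lowest library in all 4 and WT 3 the highest in 3.

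Complex III showed the same WT spread, with WT 1 lowest in 7 of 8 subunits. Uqcrfs1, the Rieske iron-sulfur protein that carries electrons towards cytochrome c1, had 143, 135 and 143 CPM in SAKI mice, against 152, 159 and 231 CPM in WT mice. Of the 8 complex III members it alone did not overlap (log2 fold change -0.36, SE 0.17, edgeR adjusted p = 0.31, and -0.15 without WT 3). Uqcrc1, a core subunit, had 265, 252 and 288 CPM in SAKI mice and 248, 308 and 337 CPM in WT mice (-0.15, edgeR adjusted p = 0.591). The small subunits went the other way in part: Uqcrb, Uqcrh, Uqcr11 and Uqcr10 had log2 fold changes of 0.17, 0.19, 0.16 and 0.058. Uqcrb, which sits near the ubiquinone site, had 117, 103 and 106.5 CPM in SAKI mice and 78.6, 113 and 98.6 CPM in WT mice (edgeR adjusted p = 0.563). Uqcrh, the hinge protein, had 125, 129.7 and 118 CPM in SAKI mice and 87.0, 141 and 97.9 CPM in WT mice. It overlapped with all libraries (edgeR adjusted p = 0.601) and was called higher without WT 2 (0.43, adjusted p = 0.0387).

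Cytochrome c (Cycs), the carrier between complexes III and IV, had 7.17, 7.76 and 8.43 CPM in SAKI mice, against 10.4, 8.11 and 16.6 CPM in WT mice. WT 2 lay among the SAKI mice and WT 3 far above (log2 fold change -0.59, SE 0.27, edgeR adjusted p = 0.302, and -0.25 without WT 3). At least 99% of its coding sequence is shared with other annotated genes, so its count is uncertain.

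Complex IV held the tissue isoforms and 3 of the 4 members of highest level per length. Cox8a, the widely expressed form of subunit 8, had the highest level per length of all members, 472, 438 and 472 FPKM in SAKI mice and 401, 459.5 and 461 FPKM in WT mice. In counts its log2 fold change was 0.037 (edgeR adjusted p = 0.889), and the sign turned without SAKI 1 or WT 1. Cox6b1 followed with a mean of 332 FPKM over all libraries and Cox6a1 with 198 FPKM. Cox7a2, the widely expressed form of subunit 7a, had 65.8, 62.2 and 68.4 CPM in SAKI mice, against 71.7, 74.1 and 89.2 CPM in WT mice, without overlap (-0.26, SE 0.12, edgeR adjusted p = 0.289). Cox4i1, the main form of subunit 4, had 296, 282 and 295 CPM in SAKI mice and 231, 332 and 367 CPM in WT mice, so that the SAKI values fell inside the WT range (-0.091, edgeR adjusted p = 0.806), with the sign turned without WT 3. Cox6a1 had 229, 206 and 213 CPM in SAKI mice and 215, 279 and 281 CPM in WT mice (-0.26, edgeR adjusted p = 0.348). Cox6b1 had 197, 167 and 181 CPM in SAKI mice and 116, 198 and 150.5 CPM in WT mice (0.23, edgeR adjusted p = 0.546). In both the groups overlapped. Cox7a2l has been described as joining complexes III and IV into supercomplexes. Whether it does so in these mice was not tested. Cox7a2l had 106.6, 99.8 and 111 CPM in SAKI mice and 91.8, 108 and 92.4 CPM in WT mice, also overlapping (0.12, edgeR adjusted p = 0.578).

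Both isoforms that mark brown fat and muscle were well expressed and neither differed beyond the spread. Cox8b (GRCm38 chromosome 7, 140898943 to 140900446) had 34.8, 28.8 and 32.1 CPM in SAKI mice, against 27.2, 35.0 and 59.6 CPM in WT mice. WT 3 alone stood above the others, and the log2 fold change of -0.35 (SE 0.28, edgeR adjusted p = 0.524) became 0.038 without WT 3. Ucp1, the uncoupling protein of brown and beige fat, was also highest in WT 3, with 64.5, 42.6 and 68.3 CPM in SAKI mice, against 35.6, 56.3 and 314 CPM in WT mice. Over the 6 brown and beige markers the summed level was 311 to 377 CPM in SAKI mice, against 118, 413 and 535 CPM in WT mice, so WT 3 was highest and WT 1 lowest. Of the 535 CPM in WT 3, Ucp1 alone made up 314 CPM. The markers did not share 1 highest library. Ucp1, Dio2 and Elovl3 were highest in WT 3, Cidea (251 CPM) and Cpt1b (88.8 CPM) in WT 2, and Ppargc1a (14.3 CPM) in SAKI 1. The part of brown or beige adipocytes in the Cox8b values was not tested. Cox7a1 (GRCm38 chromosome 7, 30184171 to 30186028) had 13.7, 10.7 and 10.7 CPM in SAKI mice, against 7.12, 11.3 and 14.1 CPM in WT mice. The groups overlapped (0.11, SE 0.26, edgeR adjusted p = 0.844), and the sign turned without SAKI 1 or WT 1.

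Cox6a2, the heart and skeletal muscle form of subunit 6a, had 8.21, 1.16 and 3.93 CPM in SAKI mice and 9.82, 0.973 and 2.23 CPM in WT mice. It varied about as much within each group as over all mice (log2 fold change 0.025, SE 0.92, edgeR adjusted p = 0.991), and its sign turned without SAKI 1, WT 2 or WT 3. The 13 skeletal muscle markers summed to 3503, 476 and 2126 CPM in SAKI mice and 7209, 619 and 1061 CPM in WT mice, with the 4 highest libraries in the same order as for Cox6a2. The part of muscle tissue in the Cox6a2 values was not tested. Cox4i2, a form of subunit 4 known from lung and from responses to low oxygen, had 2.41, 2.39 and 2.07 CPM in SAKI mice, against 4.05, 2.85 and 3.34 CPM in WT mice. It did not overlap (-0.58, SE 0.24, edgeR adjusted p = 0.27). The testis form Cox6b2 had 1.499, 0.905 and 1.96 CPM in SAKI mice and 0.798, 1.297 and 1.44 CPM in WT mice, the lowest level per length of the members tested (0.468 FPKM). The testis forms Cox7b2 and Cox8c had no counts, and neither had the testis genes Prm1, Prm2 and Tnp1. Ndufa4, now placed in complex IV, had 114, 109.6 and 113 CPM in SAKI mice and 103, 125 and 134 CPM in WT mice (-0.11, edgeR adjusted p = 0.668). Its paralog Ndufa4l2, known from responses to low oxygen, had 8.21, 8.73 and 10.03 CPM in SAKI mice and 7.73, 9.99 and 8.58 CPM in WT mice (0.038, edgeR adjusted p = 0.921), and its sign turned without SAKI 3 or WT 1.

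Isoform use was compared within each library as the log2 ratio of the FPKM values of the 2 forms, with 0.1 added to each, for 6 pairs and an exact two-sided permutation test over the 6 mice, whose smallest p is 0.1. Cox4i2 over Cox4i1 was -5.68, -5.62 and -5.89 in SAKI mice, against -4.60, -5.61 and -5.54 in WT mice. The SAKI values were all lower, with WT 2 close to SAKI 2 (difference of means -0.48, exact p = 0.1, 0.4 after adjustment over the 6 pairs). The difference was -0.155 without WT 1, and -0.34 with an exact p of 0.4 when 1 was added in place of 0.1. Cox7a1 made up 30.1, 26.3 and 24.4% of the FPKM of its pair with Cox7a2 in SAKI mice, and 17.1, 24.1 and 24.6% in WT mice (difference of log2 ratios 0.41, exact p = 0.2, 0.4 adjusted, and 0.19 without WT 1). Cox8b made up 16.7, 15.5 and 16.2% of its pair with Cox8a in SAKI mice, and 16.4, 16.9 and 25.5% in WT mice (-0.32, exact p = 0.2, 0.4 adjusted, and -0.058 without WT 3). For the other 3 pairs the exact p was 0.5 (Ndufa4l2 and Ndufa4), 0.8 (Cox6a2 and Cox6a1) and 0.9 (Cox6b2 and Cox6b1). No pair could pass the threshold in a design of this size.

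**Figure D4:**
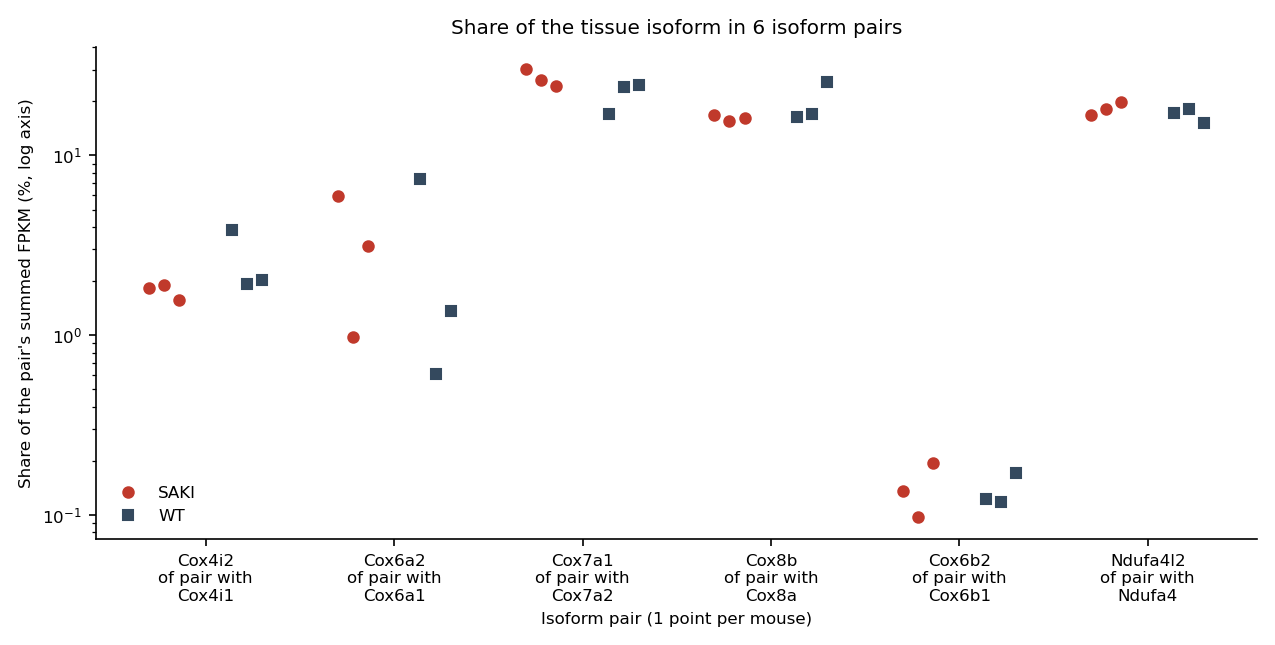
Share of the tissue isoform in the summed FPKM of its pair (percent, log axis) for 6 pairs, 1 point per mouse, SAKI left and WT right within each pair. Cox7a1 (24.4 to 30.1% in SAKI mice, 17.1 to 24.6% in WT mice) and Cox8b (15.5 to 16.7% in SAKI mice, 16.4 to 25.5% in WT mice) make up a substantial part of their pairs, while Cox6b2 stays under 0.2%.

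The 15 genes of complex V summed to 3275, 3143 and 3221 CPM in SAKI mice, against 3317, 3616 and 4357 CPM in WT mice, with every SAKI sum below every WT sum. Atp5b, the catalytic beta subunit of the F1 head, had the highest level per length in the complex (mean 211 FPKM) and 1338, 1266 and 1319 CPM in SAKI mice and 1427, 1481 and 1970 CPM in WT mice. Its groups did not overlap, but the log2 fold change of -0.32 (SE 0.16) had an edgeR adjusted p of 0.339 and was -0.155 without WT 3. Atp5a1, the alpha subunit beside it, had 752, 812 and 762 CPM in SAKI mice and 686, 937 and 911 CPM in WT mice, with all SAKI values inside the WT range (-0.12, edgeR adjusted p = 0.689). Without Atp5b the other 14 genes summed to 1937.5, 1877 and 1902 CPM in SAKI mice, against 1890, 2134 and 2387 CPM in WT mice, so that WT 1 lay among the SAKI mice.

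Subunit c, which forms the rotating ring in the membrane, is made from Atp5g1, Atp5g2 and Atp5g3, whose mature proteins are alike. Atp5g3 (ENSMUSG00000018770, GRCm38 chromosome 2, 73908447 to 73911326) had the highest level per length of them, a mean of 55.3 FPKM against 0.622 FPKM for Atp5g1 and 1.202 FPKM for Atp5g2. It had 111, 112 and 115 CPM in SAKI mice, against 229, 119.6 and 289 CPM in WT mice. The SAKI values were again nearly equal, WT 2 lay just above them, and WT 1 and WT 3 were the high libraries. The means were 112.5 ± 2.37 CPM in SAKI mice and 213 ± 86.0 CPM in WT mice (SD, n = 3 each), and the log2 fold change was -0.92 (SE 0.29, edgeR adjusted p = 0.208). None of the coding sequence of Atp5g3 is shared with another annotated gene. For Atp5g1 and Atp5g2 at least 99% is shared, so their counts are uncertain. The FPKM of the subunit c genes also depend on the gene lengths used. In counts, Atp5g1 averaged 4.87 CPM in SAKI mice and 7.27 CPM in WT mice, and Atp5g2 2.595 CPM in SAKI mice and 2.48 CPM in WT mice. Atp5l, subunit g of the membrane part, had 3.71, 3.49 and 3.88 CPM in SAKI mice, against 6.81, 4.67 and 9.36 CPM in WT mice, without overlap (-0.91, SE 0.28, edgeR adjusted p = 0.20). Its count is uncertain because at least 99% of its coding sequence is shared. Atp5e, the epsilon subunit, overlapped narrowly at WT 2 (54.7, 42.9 and 51.0 CPM in SAKI mice, 68.4, 54.5 and 78.2 CPM in WT mice, -0.44, edgeR adjusted p = 0.24). Atp5k, Atp5h, Atp5o, Atp5j2 and Atp5g2 lay above 0, at 0.058 to 0.28, each with overlap.

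Atp5sl, known as Dmac2 and involved in assembly of the membrane arm of complex I, was the only member with all SAKI values above the WT values, at 41.1, 39.5 and 37.1 CPM in SAKI mice, against 33.0, 34.4 and 34.0 CPM in WT mice. The log2 fold change was 0.21 (SE 0.10, edgeR adjusted p = 0.292). Atp5s, coupling factor B, had a log2 fold change of 0.22 with overlap.

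By median, members with at least 99% of their coding sequence shared had lower levels per length than those that share a part or none. In 7 tested members at least 99% of the coding sequence, read as windows of 50 bases, also occurs in transcripts of other annotated genes: Atp5g1, Atp5g2, Atp5l, Cox7c, Cycs, Ndufab1 and Ndufb4. Their mean levels were 0.622 to 10.4 FPKM with a median of 2.60 FPKM, against medians of 36.0 FPKM for the 36 members that share a part and 31.98 FPKM for the 48 that share none. No source used here says how reads matching several genes were treated, and the low values of these 7 are uncertain. Levels per length also depend on the gene lengths behind the FPKM, which were not compared with an annotation. In SAKI 1, Ndufab1 had 37.7 CPM and 4.33 FPKM, while Ndufa1, which shares none, had 39.8 CPM and 93.4 FPKM. At such like counts the gap in FPKM comes from the gene lengths used. Of the 7, 6 had a log2 fold change below 0 (median -0.29), and without sharing 34 of 48 did (median -0.12). Exons of 32 of the 93 members overlap exons of another gene, 29 of them on the opposite strand.

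The 13 subunits encoded in mitochondrial DNA had 13 of 13 log2 fold changes above 0 (median 0.51), but every one of them overlapped between the groups and 0 had an adjusted p under 0.05. The nearest was mt-Atp8, with 6114, 5725 and 4874 CPM in SAKI mice, against 1579, 4941 and 2116 CPM in WT mice (0.95, edgeR adjusted p = 0.279, and 1.59 with adjusted p = 0.00694 without WT 2). Without WT 2, edgeR called 9 of the 13 higher, where it called 7.41% of all genes higher. Summed, they had 161102, 146227 and 126833 CPM in SAKI mice, against 69738, 142278 and 91915 CPM in WT mice. WT 2 lay with the SAKI mice. Per 100 CPM of mitochondrially encoded subunits, the nuclear members had 6.13, 6.35 and 7.59 CPM in SAKI mice, against 13.0, 7.53 and 13.2 CPM in WT mice. For complex I this figure was 5.58, 5.37 and 6.85 CPM in SAKI mice and 10.6, 6.43 and 10.6 CPM in WT mice. For complex V it was 14.2, 14.98 and 17.7 CPM in SAKI mice and 42.6, 19.3 and 41.9 CPM in WT mice. Leaving the mitochondrially encoded genes out before scaling called 0 members as well.

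**Figure D5:**
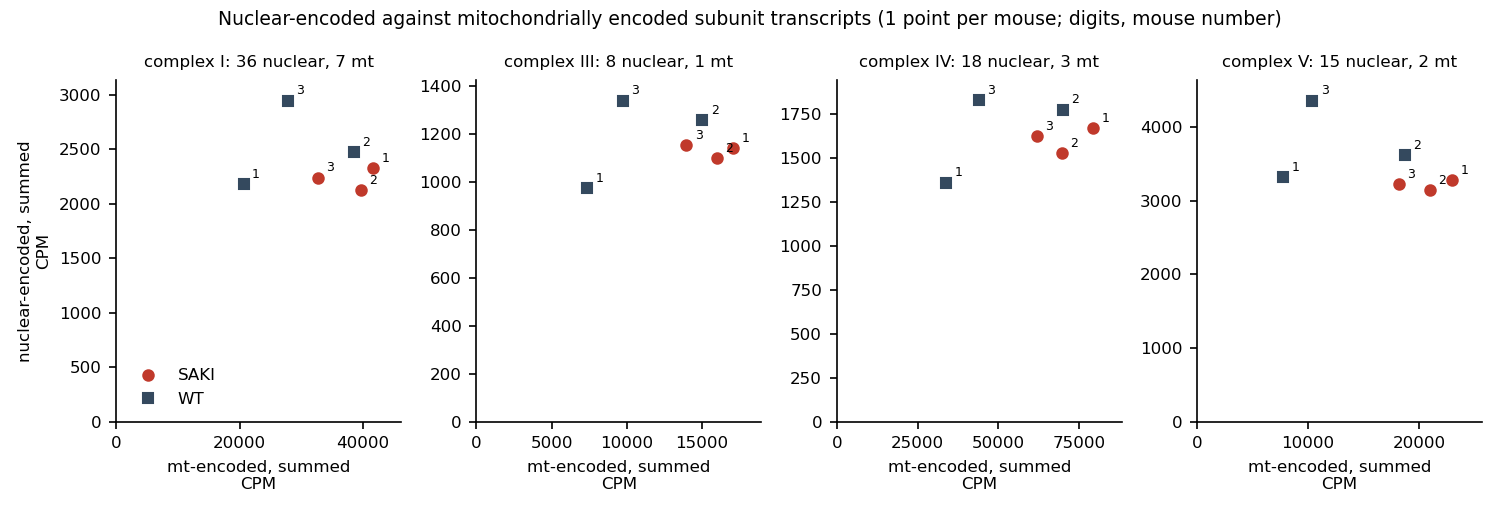
Summed CPM of nuclear-encoded subunits (vertical axis, CPM) against that of mitochondrially encoded subunits (horizontal axis, CPM) for complexes I, III, IV and V, 1 point per mouse with its number, SAKI as circles and WT as squares. WT 1 and WT 3 lie to the left of all other mice in each panel, and WT 2 lies near the SAKI mice.

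Genes that make or control the chain were read from lists beside the members. Of 39 tested assembly factors outside the name rule, 29 were below 0 (median log2 fold change -0.16), 6 had all SAKI values below the WT values (near the 12.4% of all genes tested) and 0 had an edgeR adjusted p under 0.05. Cox19, a copper-related complex IV factor, had the largest difference of these, with 26.7, 22.6 and 21.97 CPM in SAKI mice, against 44.0, 30.7 and 53.6 CPM in WT mice (-0.85, edgeR adjusted p = 0.17). It was called by DESeq2 (adjusted p = 0.0134) and by edgeR without WT 2 (-1.04, adjusted p = 0.00929). Cyc1, the cytochrome c1 subunit of complex III that the name rule misses, had 152.2, 134 and 152.0 CPM in SAKI mice and 152.5, 172 and 217 CPM in WT mice (-0.31, edgeR adjusted p = 0.329). Of 15 tested regulators of mitochondrial genes, 9 were below 0 and 6 above (median -0.12), 0 with an adjusted p under 0.05. The receptor Esrra, a known activator of respiratory chain genes, had 27.1, 27.7 and 30.9 CPM in SAKI mice, against 35.3, 33.4 and 45.5 CPM in WT mice, without overlap (-0.41, edgeR adjusted p = 0.228). Tfb1m, a methyltransferase of mitochondrial ribosomal RNA, had values entirely above, with 6.13, 6.53 and 7.91 CPM in SAKI mice, against 4.54, 5.51 and 4.97 CPM in WT mice (0.45, edgeR adjusted p = 0.274). The coactivator of Esrra, Ppargc1a, overlapped, with 14.3, 9.77 and 9.10 CPM in SAKI mice and 5.58, 14.1 and 11.4 CPM in WT mice.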

How the data were processed

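The authors deposited raw counts per gene for each library and, for all libraries, FPKM values. In all 13186 genes checked, the FPKM and the deposited counts implied the same gene length in every library, to within 0.1%. That length was not compared with an annotation. In the submitters' processing notes stand GRCm38 and the tools StringTie 1.3.0, HISAT2 2.0.4 and Bowtie2 2.2.6, and neither counting tool nor annotation release nor strand use is stated in the sources used here. Gene names turned into dates (27) were restored. Libraries were grouped by their labels.

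The main test was edgeR's quasi-likelihood test (version 4.0.16, R 4.3.3) on the counts (filterByExpr, minimum count 10 and total 15, TMM, genotype only, adjusted p under 0.05 over 15400 genes). CPM are TMM-scaled. The biological coefficient of variation was 23.27%. The test was tried on simulated data first. Alternatives were other scalings, DESeq2 1.42.0, limma 3.58.1 (voom, and log2(FPKM + 1) or log2(FPKM + 0.1) with an FPKM of at least 1 in 3 libraries), other filters, a replicate block and leaving out each library. Members, lists and rules were chosen with earlier results of these data known. Named with full values were isoforms, core subunits (1 is not reported here), the members of smallest p in each complex and those of highest and lowest FPKM. A few others were named after their values were seen, among them Atp5sl, Ndufb6, Ndufaf4, Uqcrh, Cox19, Esrra and Tfb1m. Sequence sharing and exon overlap were taken from GENCODE vM21 (GRCm38), promoters from RefSeq (GRCm38.p6).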

Additional observations from a re-analysis of the deposited data

How the results depend on the processing

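The count of all genes called (5) became 724 with DESeq2, 8 with no filter, 9 and 9 on log2(FPKM + 1) and log2(FPKM + 0.1), and 1 to 2598 when single libraries were left out, the 2598 without WT 2. The count of members called (0) became 2 with DESeq2 and 0 to 10 when single libraries were left out, the 10 without WT 2. With the replicate number as a block 1 gene and 0 members were called. The correlations of same-numbered mice, taken on deviations from their group means, were 0.036, 0.042 and 0.089. Those of mice with different numbers ran from -0.199 to 0.163. With 3 mice per group these values cannot show whether the numbers pair the mice. Single libraries moved the median of complex V between -0.254 without WT 1 and -0.045 without WT 3. That of complex I moved between -0.29 without WT 1 and -0.07 without WT 3. The range was -0.23 to -0.019 for complex II, -0.17 to 0.07 for complex III and -0.17 to 0.043 for complex IV. The log2 ratio difference of Cox6a2 over Cox6a1 (0.51) ranged from -0.28 without WT 2 and -0.082 without SAKI 1 to 1.53, and that of Cox6b2 over Cox6b1 (-0.032) from -0.24 to 0.11 without WT 3 and 0.16 without SAKI 2. When single libraries were left out, the log2 fold change turned sign for Cox4i1 (-0.266 to 0.048, above 0 without WT 3), Sdha (-0.216 to 0.011, above 0 without WT 3) and Cox8b (-0.569 to 0.038, above 0 without WT 3). It turned for Cox6a2 within -0.765 to 1.464 (-0.765 without SAKI 1, -0.442 without WT 2, -0.29 without WT 3), for Cox7a1 within -0.123 to 0.34 (-0.038 without SAKI 1, -0.123 without WT 1), for Cox8a within -0.063 to 0.096 (-0.015 without SAKI 1, -0.063 without WT 1) and for Ndufa4l2 within -0.048 to 0.146 (-0.048 without SAKI 3, -0.046 without WT 1). The causes were not tested. Of the settings tried on single members, 502 kept direction and side of the threshold and 7 brought a call.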

Other observations

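Uncoupling and thermogenic genes, which sit beside the respiratory chain in the mitochondrial inner membrane or mark beige cells, showed no common direction. Of 7 tested, 3 had a log2 fold change above 0 and 4 below (median -0.22), and edgeR gave 0 an adjusted p under 0.05. Ucp2, an uncoupling protein homolog also abundant in immune cells, had 348, 370.0 and 421 CPM in SAKI mice, against 256, 317 and 256 CPM in WT mice, without overlap (0.46, edgeR adjusted p = 0.195). Slc25a5, the ADP and ATP carrier of most tissues, had 239, 234 and 253 CPM in SAKI mice, against 269.5, 256 and 326 CPM in WT mice, also without overlap (-0.23, edgeR adjusted p = 0.365). Cidea, a lipid droplet protein of brown fat, had 221, 186 and 191 CPM in SAKI mice and 36.9, 251 and 107 CPM in WT mice, with all SAKI values inside the WT range. Dio2 and Elovl3 were low and highest in WT 3, and Elovl3 did not pass the filter on low counts. The values were 0.913, 0.905 and 1.24 CPM in SAKI mice and 0.859, 3.18 and 8.45 CPM in WT mice for Dio2, and 0.326, 0.259 and 0.310 CPM in SAKI mice and 0.123, 0.648 and 13.6 CPM in WT mice for Elovl3.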
